A study of Homo sapiens with 30 samples.

Results

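The return of oxygen to hypoxic RCC4 cells was followed on 6 of the 30 arrays of the series, chosen because they carry the reoxygenation samples and the 18 h hypoxia samples read on the same intensity scale. RCC4 is a renal carcinoma line that lacks functional VHL, and it was studied in that state (VHL-null) and after reintroduction of the wild-type gene (VHL-restored). Each genotype gave 1 array after 18 h of hypoxia and 4 h of reoxygenation, 1 array after 18 h of hypoxia and 1 h of reoxygenation, and 1 array at 18 h of hypoxia (replicate 2 of that group). Cells grew as monolayers and were made hypoxic in an anoxic incubator, so all 6 samples had been through 18 h of hypoxia. The labels name no clone or vector for the VHL-restored cells. Every value below is therefore a single array, and the 2 genotypes stand in for replicates. The p-values draw on how far a change repeated over the genotypes and, for most of the spread, on all tested genes together. They do not measure the spread of independent cultures of one kind.

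VHL is the substrate-recognition part of a ubiquitin ligase that marks the alpha subunits of hypoxia-inducible factor (HIF) for degradation when oxygen is present. In hypoxia, or where VHL is lost as in most clear cell renal carcinomas, HIF accumulates and raises transcripts for glycolysis, angiogenesis and pH control. On reoxygenation of cells with VHL, HIF protein is lost quickly, and how soon a target transcript follows depends also on how long that transcript lives. Immediate early genes, many of them with short-lived mRNAs, respond to stress and growth signals without new protein synthesis.

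Values are the deposited linear intensities of a custom oligonucleotide array, and a change is a difference on the log2(intensity + 16) scale after each array was centred on its median over 12690 genes. The upper 60% of genes by mean value, 7614 genes, were tested with limma in a fit with genotype and state, with Benjamini-Hochberg adjustment over all of them. A gene passed where this adjusted p was under 0.05. Each gene's spread combined its own 2 residual degrees of freedom with 18.5 taken from all tested genes together. A gene could therefore pass with unlike changes in the genotypes: CCNB1 did so with -0.35 in VHL-null and -1.5 in VHL-restored cells. The array medians before centring were lower after 4 h of reoxygenation than at 18 h by -0.167 in VHL-null cells and -0.272 in VHL-restored cells, so a rise or fall is relative to that shift. Null entries, whose meaning the labels do not give, were counted over all 35409 probe sets. They made up 32% of the VHL-null and 40.3% of the VHL-restored array at 4 h of reoxygenation, against 27.1% and 33.4% at 18 h. Among the tested genes alone they made up 0% and 0.131% of these arrays at 4 h, though most of the largest falls named below were null on that VHL-restored array. The ratio of 3′ to 5′ GAPDH control signal, a sign of RNA integrity, was 1.01 to 1.11 on the 6 arrays. The same ratio for ACTB was 1.13 and 1.15 on the VHL-null and VHL-restored arrays at 4 h, against 0.959 and 1.07 at 18 h, and 0.934 and 0.721 at 1 h; its part in the changes below was not tested.

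After 4 h of reoxygenation, 248 genes differed from 18 h of hypoxia, which is 3.26% of those tested. Of these, 199 had fallen (2.61%) and 49 had risen (0.644%), and 247 moved the same way in both genotypes. The falls were also the larger changes: 24 genes were lower by more than 1 log2 unit in both genotypes, and 0 were higher by that much. At 1 h only 3 genes had passed (0.0394%), all of them lower: ADM, NFKBIA and NFKBIZ, with 235 at an unadjusted p under 0.05 and 0 genes in the fit of 20 arrays. Between 1 h and 4 h of reoxygenation 152 genes passed (2%), 134 of them lower at 4 h (1.76%) and 18 higher (0.236%). These counts lean on few arrays, since the fit has 2 residual degrees of freedom: without the VHL-restored array at 4 h the comparisons with 18 h and with 1 h gave 0 genes (1022 and 735 at an unadjusted p under 0.05), without the VHL-restored array at 18 h the comparison with 18 h gave 65, and without the VHL-restored array at 1 h the step from 1 h gave 60. They also depended on centring, since centring on the tested genes alone left 7 genes at 4 h, no centring 54 and quantile normalization 8, all of them lower. Replicate 1 as the 18 h level left 8 genes, null entries as missing 1, and testing all genes or dropping the genotype term 0 (1292 and 262 at an unadjusted p under 0.05). With nulls as missing, all genes tested, no genotype term or replicate 1 as the 18 h level, 0 members passed among HIF targets, immediate early genes, TGF-beta feedback, ATF4 and G2/M genes. A fit of all 20 RCC4 arrays with a term for array set called 206 genes (2.71%), 74 of them higher (0.972%) and 132 lower (1.73%), and 138 of the 206 were among the 248; whether a named gene passed there is given with it.

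ADM and PLK2 show the size of the response. ADM, which encodes the vasodilator peptide adrenomedullin, had an intensity of 842 at 18 h, 508 after 1 h and 126 after 4 h in VHL-null cells, and of 765, 280 and 45 at the same times in VHL-restored cells. Both genotypes fell at each step, and the 4 h arrays lie below both 18 h arrays by a wide margin. The change at 4 h was -2.92 (SE 0.157, adjusted p = 2.0e-10), a 7.55-fold lower value on this scale, and it passed in the fit of 20 arrays as well (adjusted p = 0.0050). PLK2, a polo-like kinase and p53 target, stood at 938 at 18 h, 851 after 1 h and 174 after 4 h in VHL-null cells, and at 1033, 456 and 6 in VHL-restored cells. Its change was -3.73 (SE 0.372, adjusted p = 1.3e-06, and 0.0013 in the fit of 20 arrays), the largest fitted fall, though with an intensity of 6 its size depends on the added 16: it was -4.32 with 4 added and -2.84 with 64. Without the VHL-restored array at 4 h it was -2.41 and did not pass. The fall of PLK2 came mostly after the first hour, since its 1 h change of -0.57 did not pass.

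NFKBIA, which encodes the inhibitor that holds NF-kB in the cytoplasm and is itself an NF-kB target, fell in both genotypes. Its intensity after 4 h was 164 in VHL-null and 159 in VHL-restored cells, against 898 and 838 at 18 h, and the 1 h arrays lay between, at 535 and 339. The change was -2.10 (SE 0.136, adjusted p = 3.5e-09, and 3.2e-06 in the fit of 20 arrays). NFKBIZ, a nuclear regulator of NF-kB target genes, had reached most of its fall by 1 h: it was at 430 at 18 h, 174 after 1 h and 167 after 4 h in VHL-null cells, and at 586, 369 and 260 in VHL-restored cells (4 h change -0.99, adjusted p = 6.2e-05, and 0.032 in the fit of 20 arrays). The list of NF-kB and inflammation genes did not hold NFKBIZ. Of its 14 tested members NFKBIA alone passed at 4 h, where 3.26% of all tested genes passed. CXCL8 and CXCL2, both chemokines, did not pass, with changes of -0.40 and -0.26.

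**Figure D1:**
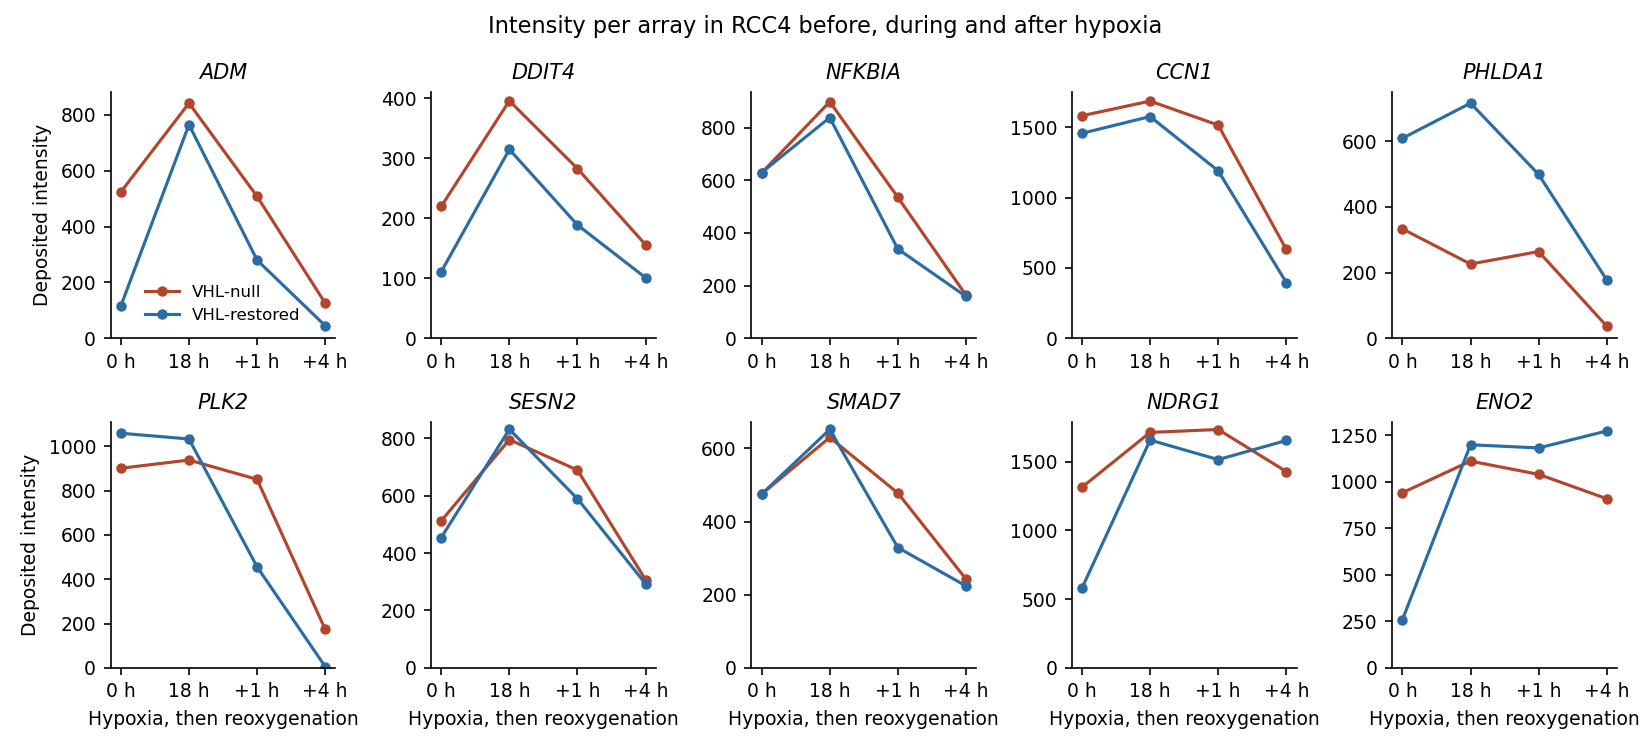
Deposited intensity (vertical axis, linear, from 0) of 10 genes on single arrays of VHL-null (red) and VHL-restored (blue) RCC4 cells at 0 h and 18 h of hypoxia (replicate 2 of each) and after 1 h and 4 h of reoxygenation. ADM, DDIT4, NFKBIA, CCN1, PHLDA1, PLK2, SESN2 and SMAD7 were lower at 4 h than at 18 h in both genotypes, while NDRG1 (1429 and 1655 at 4 h, 1714 and 1658 at 18 h) and ENO2 stayed near their 18 h values.

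HIF targets outside glycolysis split into a group that fell and a larger group that did not pass. Of 42 listed genes 34 were on the array as single-symbol genes and 26 were tested. At 4 h 8 of the 26 had fallen and 0 had risen, where 2.61% of all tested genes fell. The median over the 26 was 0.04, beside 0.05 over all tested genes. In both genotypes 8 members were lower and 8 higher, as were 1209 and 2689 of all 7614 tested genes. The 8 were ADM, CITED2, DDIT4, EDN1, HILPDA, PPP1R3C, F3 and VLDLR, and ADM, CITED2 and DDIT4 passed in the fit of 20 arrays too.

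CITED2 encodes a competitor of HIF for the coactivator p300, and DDIT4 encodes an inhibitor of mTORC1 signalling. CITED2 was at 123 and 153 after 4 h in VHL-null and VHL-restored cells, against 338 and 652 at 18 h, a change of -1.45 (SE 0.15, adjusted p = 2.2e-06). DDIT4 was at 156 and 101 after 4 h, against 396 and 315 at 18 h, a change of -1.16 (SE 0.114, adjusted p = 1.2e-06). In neither gene did a 4 h array reach an 18 h array. EDN1, the vasoconstrictor endothelin-1, was at 450 and 466 after 4 h, against 927 and 1236 at 18 h (change -0.98, adjusted p = 1.3e-05, but 0.23 in the fit of 20 arrays). HILPDA, a lipid droplet protein that inhibits triglyceride breakdown, was at 252 and 296 after 4 h, against 465 and 632 at 18 h (change -0.73, adjusted p = 3.6e-04, and 0.31 in the fit of 20 arrays). PPP1R3C, which directs a phosphatase to glycogen, and F3, the tissue factor that starts coagulation, changed by -0.63 and -0.54, and the lipoprotein receptor VLDLR by -0.49. These last 3 did not pass in the fit of 20 arrays, with adjusted p of 0.55, 0.50 and 0.062. VEGFA was too dim for the tested genes and was null on the VHL-restored array at 4 h.

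Glycolytic and glucose-handling transcripts gave no call at 4 h. Of 18 tested genes 0 passed with limma in either fit and 1 had an unadjusted p under 0.05, and their median was 0.06 at 4 h and 0.01 at 1 h. ENO2, the gamma enolase, was at 910 and 1274 after 4 h in VHL-null and VHL-restored cells, against 1112 and 1200 at 18 h. PDK1, a kinase that inhibits pyruvate dehydrogenase, was at 618 and 657, against 641 and 718. PFKFB4, which makes the activator of phosphofructokinase, had the lowest change of the list, -0.24 (adjusted p = 0.35). Before centring, ENO2 was lower at 4 h than at 18 h on the VHL-null array and higher on the VHL-restored array.

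Which hypoxia-raised transcripts persisted could be asked without reusing the 18 h arrays of this comparison, by taking the genes from replicate 1 of 0 h and 18 h. On those arrays 50 tested genes were higher by over 1 log2 unit at 18 h in VHL-restored cells, among them 16 HIF targets and 5 glycolysis genes, against 2 genes in VHL-null cells, neither of them on those lists. After 4 h of reoxygenation, 6 of the 16 HIF targets in VHL-restored cells were lower than at 18 h by more than 0.5, and the same 6 passed as fallen: ADM, DDIT4, EDN1, F3, PPP1R3C and HILPDA. Another 9 lay within 0.5 of their 18 h value and 1, NRN1, was higher by 0.55. All 5 glycolysis genes lay within 0.5. For comparison, 34 of all 50 raised genes lay within 0.5, 14 were lower and 2 higher by more than that.

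The persisting group stayed above its 0 h level, though this was not particular to it. NDRG1, a stress-response gene used as a marker of HIF activity, had an intensity of 1655 after 4 h of reoxygenation in VHL-restored cells, against 1658 at 18 h of hypoxia and 581 at 0 h. BNIP3, a mitophagy receptor, was at 532 after 4 h, against 511 at 18 h and 120 at 0 h, and CA12, a membrane carbonic anhydrase, was at 294, against 256 at 18 h and 80 at 0 h. The median of the 16 HIF targets was still 1.41 above 0 h after 4 h of reoxygenation. ADM went the other way, ending below its 0 h value by -0.78 on the log2 scale. These are values of single arrays and carry no test.

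**Figure D2:**
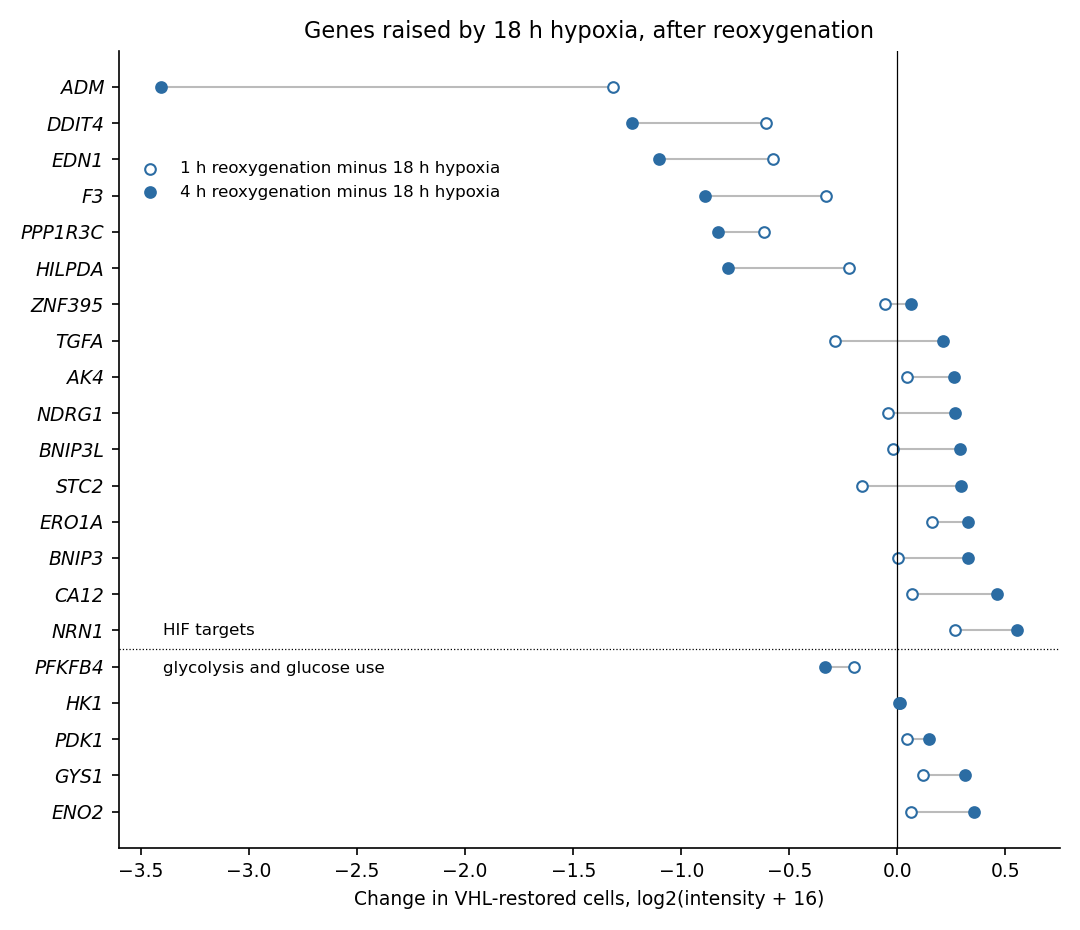
Change from 18 h of hypoxia after 1 h (open) and 4 h (filled) of reoxygenation in VHL-restored cells, on the log2(intensity + 16) scale after centring, for the 16 HIF targets and 5 glycolysis genes that were higher by over 1 at 18 h than at 0 h on the replicate 1 arrays. Each point is a difference of 2 arrays. ADM to HILPDA lie below -0.5 at 4 h, and the other HIF targets lie between 0.065 (ZNF395) and 0.55 (NRN1).

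In VHL-null cells, where HIF escapes oxygen-dependent degradation, ADM and DDIT4 fell as well. ADM changed by -2.43 there and by -3.41 in VHL-restored cells, and DDIT4 by -1.09 and -1.23. In the fit of 20 arrays with a mean per group, the change within VHL-null cells had an adjusted p of 2.3e-06 for ADM and 0.0093 for DDIT4, and that within VHL-restored cells 9.9e-09 and 6.6e-04. Each 4 h group is 1 array there, so these p-values take their spread from the replicated groups at 0 h and 18 h. The fall of ADM was 0.98 smaller in VHL-null cells (adjusted p = 0.040 for the difference), while that of DDIT4 differed by 0.14 (adjusted p = 0.71).

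The promoters of ADM and DDIT4, as HIF targets, and of PHLDA1 and IER5, as immediate early genes, are shown because they allow the core of the HIF binding element to be looked up in genes that fell together. They are the 250 bases before the start in RefSeq, assembly GRCh38.p14, written 5′ to 3′ on the gene's strand, with ACGTG or GCGTG on either strand in capitals. The ADM window lies at chr11:10304823-10305072 on the plus strand, that of DDIT4 at chr10:72273674-72273923 on the plus strand, that of PHLDA1 at chr12:76031777-76032026 on the minus strand and that of IER5 at chr1:181088450-181088699 on the plus strand.
ADM: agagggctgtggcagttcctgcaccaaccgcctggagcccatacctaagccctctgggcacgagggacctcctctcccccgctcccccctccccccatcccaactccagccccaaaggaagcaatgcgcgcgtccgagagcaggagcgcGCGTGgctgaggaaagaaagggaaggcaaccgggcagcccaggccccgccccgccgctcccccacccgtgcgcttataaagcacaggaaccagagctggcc
DDIT4: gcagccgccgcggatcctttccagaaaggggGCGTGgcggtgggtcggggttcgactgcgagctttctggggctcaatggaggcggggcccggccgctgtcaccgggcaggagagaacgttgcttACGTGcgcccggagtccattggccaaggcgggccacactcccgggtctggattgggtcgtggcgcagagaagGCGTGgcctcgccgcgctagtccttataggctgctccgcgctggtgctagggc
PHLDA1: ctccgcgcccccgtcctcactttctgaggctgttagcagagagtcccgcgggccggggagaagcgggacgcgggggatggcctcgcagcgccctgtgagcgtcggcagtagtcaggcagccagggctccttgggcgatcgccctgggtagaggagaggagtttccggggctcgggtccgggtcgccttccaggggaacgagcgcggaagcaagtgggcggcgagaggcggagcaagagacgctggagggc
IER5: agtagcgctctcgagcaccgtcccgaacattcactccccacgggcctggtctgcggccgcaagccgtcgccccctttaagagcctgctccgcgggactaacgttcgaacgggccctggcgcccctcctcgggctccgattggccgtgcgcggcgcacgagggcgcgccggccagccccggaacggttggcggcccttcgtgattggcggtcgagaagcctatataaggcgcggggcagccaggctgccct

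The ADM window holds 1 match, whose first base lies 101 bases before the start, and that of DDIT4 holds 3, at 219, 125 and 53 bases before it. In the PHLDA1 and IER5 windows these letters do not occur. A match of this short core is common: it was present in 43.2% of 35116 RefSeq promoter windows of this length. Among tested genes with 1 start in the table, it was present in 58.8% of the 114 that fell, in 62.5% of the 24 that rose and in 56.8% of all 4320.

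Immediate early genes had the lowest median of the 24 lists, -0.28. Of 21 tested members 8 had fallen and 0 had risen, where 2.61% of all tested genes fell and 0.644% rose. In both genotypes 14 of the 21 were lower, as were 1209 of all 7614 tested genes. PHLDA1, a pleckstrin-homology-like protein induced by growth factors, was at 37 and 178 after 4 h in VHL-null and VHL-restored cells, against 226 and 716 at 18 h (change -1.83, SE 0.164, adjusted p = 3.3e-07). IER5 was at 215 and 48, against 569 and 378 (change -1.76, SE 0.171, adjusted p = 1.2e-06). CCN1, a matricellular growth factor response protein also known as CYR61, was at 631 and 396, against 1686 and 1576 (change -1.45, SE 0.122, adjusted p = 1.4e-07). The small GTPase gene RHOB was at 66 and 2, against 170 and 84 (change -1.61, SE 0.208, adjusted p = 4.5e-05). In PHLDA1, IER5, CCN1 and RHOB the 4 h array lay below the 18 h array of its own genotype, and these 4 also passed in the fit of 20 arrays.

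CCN2, the connective tissue growth factor, changed by -1.26, IER3, a survival factor, by -0.78, and the transcription factors JUNB and KLF6 by -0.53 and -0.50. These 4 passed in the fit of 6 arrays and not in that of 20, where their adjusted p were 0.14, 0.090, 0.16 and 0.14. JUN itself did not pass, with a change of -0.28 (adjusted p = 0.37), and FOSL1, FOSL2, JUND and SRF were within 0.1 of no change. At 1 h the list had a median of -0.07 and 0 members had passed (2 at an unadjusted p under 0.05). EGR1 was too dim for the tested genes, and its intensity after 4 h was 252 and 15, against 242 and 99 at 18 h.

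Of 11 tested feedback genes of TGF-beta signalling 4 had fallen and 7 did not pass, where 2.61% of all tested genes fell, and the median was -0.20. SMAD7, the inhibitory SMAD, was at 243 and 224 after 4 h in VHL-null and VHL-restored cells, against 630 and 652 at 18 h (change -1.18, SE 0.129, adjusted p = 5.1e-06, and 1.7e-05 in the fit of 20 arrays). TGIF1, a SMAD corepressor, changed by -1.03 (adjusted p = 0.0012, and 0.0060 in the fit of 20 arrays). ID3, a dominant-negative helix-loop-helix factor, changed by -0.46, and BAMBI, a pseudoreceptor that blocks TGF-beta receptors, was null on the VHL-restored array at 4 h. ID3 and BAMBI did not pass in the fit of 20 arrays (adjusted p = 0.10 and 0.085).

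ATF4 targets, the arm of the stress response that serves amino acid supply, were mixed. Of 17 tested members 5 had fallen and 0 had risen, where 2.61% of all tested genes fell and 0.644% rose, and the median was 0.03. SLC38A2, a neutral amino acid transporter, was at 216 and 18 after 4 h in VHL-null and VHL-restored cells, against 531 and 568 at 18 h (change -2.45, SE 0.358, adjusted p = 1.9e-04). SESN2, a leucine sensor that restrains mTORC1 and is also a p53 target, was at 307 and 293, against 795 and 831 (change -1.17, SE 0.116, adjusted p = 1.2e-06). CEBPB, a bZIP partner of ATF4, changed by -0.94 (adjusted p = 1.0e-04). These 3 passed in the fit of 20 arrays, while TRIB3 and VLDLR, changed by -0.56 and -0.49, did not. With an intensity of 18 on 1 array, the change of SLC38A2 ranged from -3.78 to -1.12 over 21 alternatives. ASNS, the asparagine synthetase, and ATF3 did not pass, with changes of 0.26 and 0.31.

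Of 18 tested p53 targets PLK2 and SESN2 fell and TP53INP1, an autophagy and cell death regulator, rose. Among all tested genes 2.61% fell and 0.644% rose. TP53INP1 was at 840 and 540 after 4 h, against 641 and 489 at 18 h, a change of 0.48 (adjusted p = 0.042, but 0.25 in the fit of 20 arrays). CDKN1A and MDM2, the best known p53 targets, did not pass, with changes of 0.27 and 0.41, and the list's median was 0.15.

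Of 16 tested G2/M genes 4 had fallen and 12 did not pass, where 2.61% of all tested genes fell, with a median of -0.10. The 4 were the mitotic kinase gene PLK1 (change -1.52), the cyclin gene CCNB1 (-0.93), the kinesin gene KIF20A (-0.61) and the topoisomerase gene TOP2A (-0.45). CCNB1 was at 340 and 97 after 4 h in VHL-null and VHL-restored cells, against 495 and 370 at 18 h. PLK1 was at 49 and 24, against 128 and 185. None of these 4 passed in the fit of 20 arrays, with adjusted p of 0.060 to 0.17. Of 16 S phase genes 0 passed (1 at an unadjusted p under 0.05), with a median of 0.05.

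**Figure D3:**
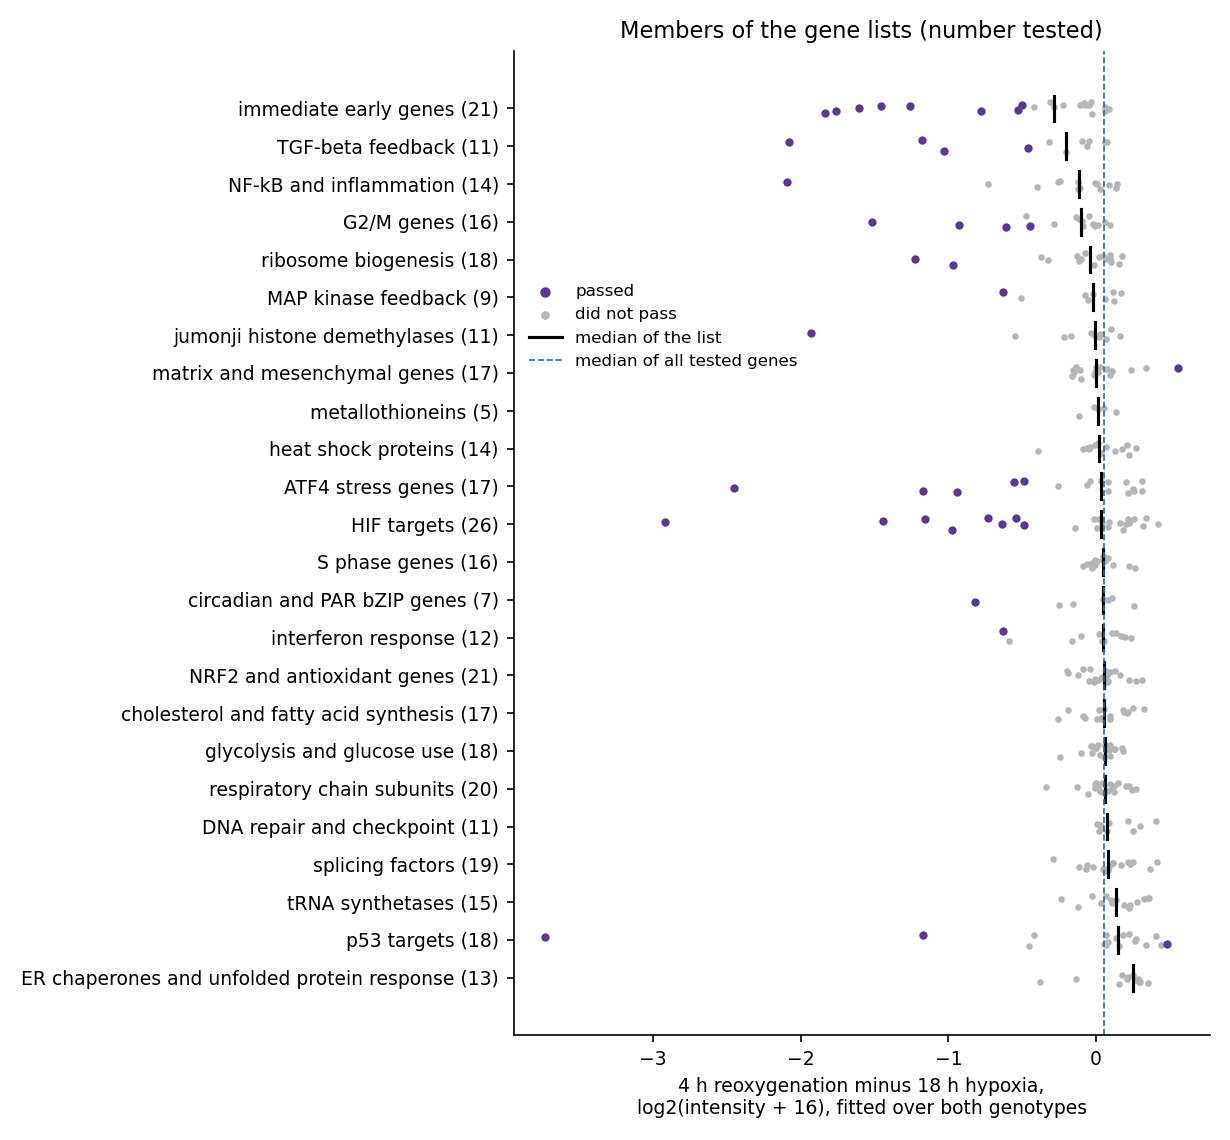
Change after 4 h of reoxygenation (horizontal axis, fitted over both genotypes, log2(intensity + 16) scale) of each tested member of 24 gene lists, ordered by list median from lowest at the top to highest at the bottom, with the number tested in brackets. Members that passed are purple and the rest grey, a black bar marks the list's median and the dashed line the median of all tested genes, 0.053; immediate early genes have the lowest median at -0.28 and endoplasmic reticulum chaperones the highest at 0.25.

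In 9 further lists 0 members passed in the limma fit of 6 arrays, where 3.26% of all tested genes passed. In lists of 5 to 21 genes, 0 is close to that share. These were tRNA synthetases (15 tested), endoplasmic reticulum chaperones (13), heat shock proteins (14), DNA repair genes (11), NRF2 and antioxidant genes (21), cholesterol and fatty acid synthesis (17), respiratory chain subunits (20), splicing factors (19) and metallothioneins (5). At an unadjusted p under 0.05 these lists held between 0 (metallothioneins) and 8 genes (chaperones), and in the fit of 20 arrays 1 gene passed in each of the lists of tRNA synthetases, DNA repair and splicing and 0 in the other 6. The chaperone list had the highest median, 0.25, and 10 of its 13 members were higher in both genotypes, as were 2689 of all 7614 tested genes. At an unadjusted p under 0.05 stood 1031 of the 7614. HSPA5, the chaperone BiP, was at 874 and 1406 after 4 h, against 865 and 1331 at 18 h. HMOX1, the heme oxygenase of the NRF2 list, changed by -0.20 (adjusted p = 0.61). Single members passed in 5 other lists of 7 to 17 tested genes each. These were DUSP5, a MAP kinase phosphatase (-0.63), IRF1, an interferon-induced transcription factor (-0.63), and the demethylase-family gene JMJD1C (-1.93, null on the VHL-restored array at 4 h). The others were TEF, a PAR bZIP factor (-0.82), and the actin gene ACTA2 (0.56). Of 18 tested genes of ribosome biogenesis NOP16 (-1.23) and POLR1C (-0.97) passed. Of these 7 genes JMJD1C and TEF passed in the fit of 20 arrays, and ACTA2 turned to -0.085 when replicate 1 gave the 18 h level.

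Among the 15 largest falls, 9 genes were null on the VHL-restored array at 4 h, so their fitted change depends on the added 16 and only the VHL-null pair is measured at both ends. TIPARP, a mono-ADP-ribosyltransferase, was at 92 after 4 h in VHL-null cells, against 300 at 18 h. CLP1, an RNA kinase of mRNA 3′ end formation and tRNA splicing, was at 115, against 341, and PRICKLE1, a planar polarity protein, at 51, against 220. DACT1, a WNT pathway regulator, was at 111, against 277, ZMIZ1, a transcriptional coactivator, at 203, against 379, and TNFSF9, the ligand of 4-1BB, at 265, against 598. In NEDD9, BAMBI and PALB2 the VHL-null difference was smaller: NEDD9, a focal adhesion scaffold, was at 268, against 448, BAMBI at 178, against 237, and PALB2, a partner of BRCA2, at 138, against 212. On the VHL-restored arrays these 9 genes had intensities of 165 to 382 at 18 h.

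FBXO5 and ARRDC3 were measured on both 4 h arrays. FBXO5, an inhibitor of the anaphase-promoting complex, was at 171 and 13 in VHL-null and VHL-restored cells after 4 h, against 521 and 454 at 18 h (change -2.55, SE 0.297, adjusted p = 1.1e-05). ARRDC3, an alpha-arrestin, was at 55 and 23, against 289 and 326 (change -2.40, SE 0.183, adjusted p = 3.8e-08). Both passed in the fit of 20 arrays, with an adjusted p of 0.0043 each. Genes that fell were spread unevenly over expression levels: the fifth of tested genes with the lowest mean held 96 of the 199 and the fifth with the highest mean held 6.

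The rises were small. The largest was that of NUP58, a nucleoporin, which was at 236 and 265 after 4 h in VHL-null and VHL-restored cells, against 168 and 174 at 18 h (change 0.73, SE 0.119, adjusted p = 7.6e-04). RIMKLB, a glutamate ligase, was at 261 and 249, against 188 and 175 (change 0.68, adjusted p = 9.0e-04), though 1 of its 2 other listed probe sets moved the opposite way. RNF6, a ubiquitin ligase, was at 314 and 347, against 204 and 291 (change 0.63), and CEP57, a centrosome protein, at 427 and 280, against 292 and 226 (change 0.63). The 4 h intensities of these 4 genes lay above the 18 h intensity of the same genotype even before centring. LZTFL1, a ciliary protein, changed by 0.62, ODR4 by 0.61, PREPL, a serine hydrolase, by 0.58 and PSIP1, a chromatin-binding protein, by 0.57. These 8 passed in the fit of 20 arrays, whereas SLC17A3, RIDA, SKAP2, ITGB8, PREX2 and CD79B, with changes of 0.59 to 0.65, did not. Without centring, after quantile normalization or with centring on the tested genes, 0 genes passed as higher in the fit of 6 arrays.

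**Figure D4:**
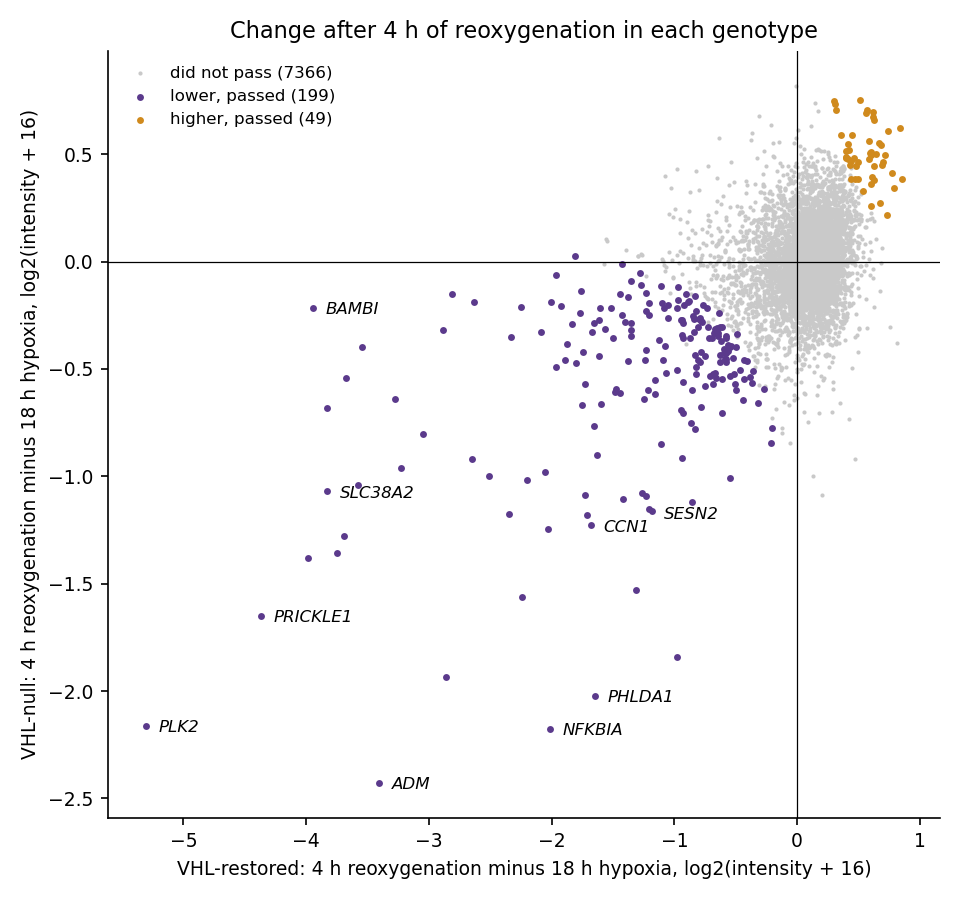
Change after 4 h of reoxygenation in VHL-null cells (vertical axis) and in VHL-restored cells (horizontal axis), each a difference of 2 arrays on the log2(intensity + 16) scale after centring, for 7614 tested genes. The 199 genes that passed as lower (purple) reach further along the VHL-restored axis than along the VHL-null axis, as PLK2 does at -5.30 and -2.16, and the 49 that passed as higher (orange) stay under 1 on both.

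The size of the change was compared between the genotypes. Across the 7614 genes, which are not independent replicates, the changes in VHL-null and VHL-restored cells had a Pearson r of 0.42. No group at 4 h has a replicate, so the spread in the fit of 20 arrays with a mean per group comes from the replicated groups at 0 h and 18 h alone (3 residual degrees of freedom), and the single 4 h arrays are assumed to vary like them. Under that assumption the change in VHL-null minus that in VHL-restored cells passed for 164 genes (2.15%), positive in 134 (1.76%) and negative in 30 (0.394%). A positive value means a change that was lower in VHL-restored than in VHL-null cells. Without the array set term 0 genes passed, with 98 at an unadjusted p under 0.05. With the term, 78 genes passed in VHL-null cells (1.02%), 68 of them lower (0.893%) and 10 higher (0.131%), and 438 in VHL-restored cells (5.75%), 342 of them lower (4.49%) and 96 higher (1.26%). The median change over all tested genes after centring was -0.017 in VHL-null cells and 0.13 in VHL-restored cells. Other centring moved the split further to positive values, with 36 positive and 1 negative without centring, 21 and 1 after quantile normalization and 107 and 3 with centring on the tested genes. The count was 79 without either VHL-null array at 0 h, 318 without either VHL-restored array at 0 h and 281 without the VHL-restored array of replicate 2 at 18 h. Each genotype has 1 array at 4 h, and over all probe sets the VHL-restored one had the most null entries of the 20 RCC4 arrays. Among the tested genes its share of null entries was 0.131%, but these fell on genes with large differences. With null entries as missing, 7602 of the 7614 genes remained, and 153 of the 164 were among them. The part of that array in the differences was not tested.

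PLK2 had one of the largest differences, 3.20 (adjusted p = 2.1e-07), with 6 in VHL-restored cells after 4 h where VHL-null cells kept 174. RND3 was at 206 in VHL-null and 16 in VHL-restored cells after 4 h, against 268 and 224 at 18 h (difference 2.80, adjusted p = 1.3e-05). PELI1, a ubiquitin ligase of Toll-like receptor signalling, was at 155 and 17, against 197 and 264 (difference 2.77, adjusted p = 7.2e-07). In VHL-null cells the changes of RND3 and PELI1 were -0.19 and -0.15. IL6, the interleukin, was at 919 in VHL-null cells after 4 h and at 140 in VHL-restored cells, against 968 and 536 at 18 h (difference 1.73, adjusted p = 4.9e-05). In VHL-restored cells IL6 was already at 160 after 1 h. CXCL8 was at 1135 and 503, against 1102 and 1247 (difference 1.61, adjusted p = 0.013).

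The largest negative differences were smaller than the largest positive ones, and in the 8 named genes the change after centring was below 0 in VHL-null and above 0 in VHL-restored cells. SPTAN1, the alpha spectrin, was at 85 in VHL-null and 284 in VHL-restored cells, against 225 and 298 at 18 h (difference -1.27, adjusted p = 6.7e-04). Before centring the VHL-restored intensity of SPTAN1 was thus lower at 4 h as well. TCIRG1, a subunit of the vacuolar proton pump, was at 131 and 176, against 188 and 121 (difference -1.11, adjusted p = 0.0019). COL6A2, a collagen VI chain, was at 230 and 384, against 401 and 378 (difference -1.01, adjusted p = 0.0081), and BSG, the lactate transporter chaperone basigin, at 583 and 1190, against 884 and 1016 (difference -0.97, adjusted p = 0.021).

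**Figure D5:**
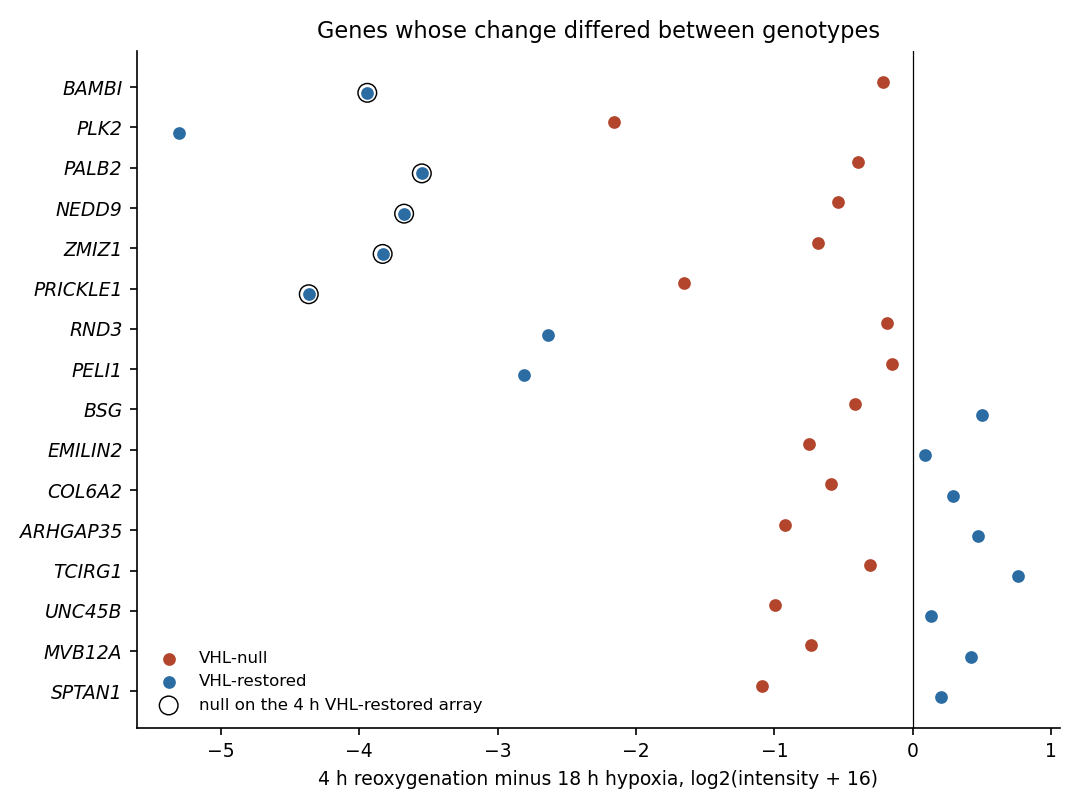
Change after 4 h of reoxygenation (log2(intensity + 16) scale after centring, each a difference of 2 arrays) in VHL-null (red) and VHL-restored (blue) cells for the 8 genes with the largest positive and the 8 with the largest negative genotype difference. Circles mark genes null on the VHL-restored array at 4 h, whose blue point depends on the added 16; the lower 8 genes lie below 0 in VHL-null and above 0 in VHL-restored cells.

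The marker check of the cells was limited. PAX8, the renal lineage transcription factor, was listed on every array and was itself lower after 4 h, at 354 and 272 against 553 and 506 at 18 h (change -0.52, adjusted p = 0.011). AQP1, a proximal tubule marker, was null on all 6 arrays. Of the markers of other cell types, ITGAM (leukocytes), TEK (endothelium) and LUM (fibroblasts) were null on all 6 arrays. Other members of those lists were not: 5 of 7 endothelial genes lay above the array median on each of the 6 arrays. So did 2 to 3 of 7 leukocyte and 2 to 4 of 8 fibroblast genes. The same held for 2 of 4 renal tubule and 3 of 4 epithelial keratin genes, so the lists do not separate these cell types. The summed intensity of the 7 endothelial genes was 1477 and 1499 after 4 h, against 1778 and 1695 at 18 h.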

How the data were processed

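RNA of RCC4 cells was read on a custom 1-colour array, and the deposited table holds linear intensity values in whole numbers, scaled by the authors; the method, the background correction and the meaning of a null entry are not given in the sources used here. Per the labels, RNA was prepared by the array maker's protocol. Arrays fall into 2 sets by whether control entries are blank; the 18 h arrays of replicate 2 share a set with the reoxygenation arrays. Nulls were taken as 0, the log2 of intensity plus 16 was centred per array, and a gene was read from its brightest probe set. Of 17478 annotated probe sets 16905 had 1 symbol and 573 several; 16881 were matched to RefSeq.

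Changes were tested by two-sided limma (version 3.58.1, R 4.3.3) with genotype and state as terms over 6 arrays. The genotype difference used all 20 RCC4 arrays with a mean per group and array set (3 residual degrees of freedom), and the shared change was refitted over the same 20 arrays with genotype, state and set (10). The fit of 6 arrays and that of the genotype difference were tried on simulated data, and the refit was not. No result above rests on the simulated data. Precision is limited by the number of arrays, and no depth is defined.

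Named genes are the 15 largest rises and falls that moved the same way in both genotypes, up to 5 members per list by limma's statistic, and up to 8 genes per direction for the other comparisons; further members of lists, and the genes raised by hypoxia on replicate 1 arrays, were added after their values were seen. The comparison, members and lists were chosen with earlier results of these data known. Of the 15 rises 1 is not described. Alternatives were the pseudocount, treatment of nulls, centring, filter, probe choice, the arrays fitted and each array left out.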

Additional observations from a re-analysis of the deposited data

Results flagged for a closer look

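The change after 4 h of reoxygenation differed between the genotypes for 164 genes in the test of the difference itself (VHL-null minus VHL-restored, limma over 20 RCC4 arrays, with 1 array per genotype at 4 h and the spread taken from replicated groups). With positive values, and a change lower in VHL-restored than in VHL-null cells, were BAMBI (3.71), PLK2 (3.20), PALB2 (3.18), NEDD9 (3.05), ZMIZ1 (2.97), PRICKLE1 (2.85), RND3 (2.80) and PELI1 (2.77). With negative values were SPTAN1 (-1.27), MVB12A (-1.22), UNC45B (-1.18), TCIRG1 (-1.11), ARHGAP35 (-1.03), COL6A2 (-1.01), EMILIN2 (-0.99) and BSG (-0.97). BAMBI, PALB2, NEDD9, ZMIZ1 and PRICKLE1 were null on the VHL-restored array at 4 h. Over all probe sets that array had 40.3% null entries, against 32% on the VHL-null array at 4 h. Among the tested genes the shares were 0.131% and 0%, yet with null entries as missing only 153 of the 164 were still tested. The part of that array in these differences was not tested.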

How the results depend on the processing

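The number of genes that passed at 4 h against 18 h (248) stayed within 1.5 times with a pseudocount of 4 or 64, the mean of all probe sets, the 4 arrays at 4 h and 18 h alone and the fit of 20 arrays, with either centring. It was 165 when the upper 40% of genes were tested, 94 with the 12 arrays of the same scale, 54 without centring, 8 with quantile normalization, 8 with replicate 1 as the 18 h level, 7 with centring on the tested genes (added after the data were seen), 1 with null entries as missing, and 0 with all genes tested or without the genotype block. With null entries as missing, 238 of the 248 genes were still tested and all 238 kept their sign. That setting also changed the centring, since each array's median was then taken over its genes without null entries. The cause of these losses was not tested. Leaving out 1 array gave 0 to 208. A like number did not always mean the same genes. Of the 248, 210 passed again with a pseudocount of 4, 243 with 64 and 175 with the 4 arrays at 4 h and 18 h alone. With the mean of all probe sets 133 passed again. In the fit of 20 arrays 138 did, and 122 with centring on the tested genes.

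The 1 h step (3 genes) gave 6 with a pseudocount of 64, 12 with the upper 40%, 10 with the mean of all probe sets and 0 with null entries as missing, no centring, quantile normalization, centring on the tested genes, all genes tested, 12 arrays, 20 arrays, no genotype block or replicate 1 as the 18 h level. Leaving out 1 array gave 0 to 26. The step from 1 h to 4 h (152 genes) gave 59 with 20 arrays, 19 with 12 arrays, 1 with null entries as missing, no centring, quantile normalization or centring on the tested genes, 0 with all genes tested or no genotype block, and 0 to 168 when 1 array was left out.

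The genotype difference (164 genes) gave 79 with the upper 40%, 37 without centring, 22 with quantile normalization, 21 with null entries as missing, 0 without the array set block, and 79 to 318 when 1 replicate was left out.

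No gene called in these comparisons and called again under an alternative had the opposite sign. Of the named genes, ACTA2 (-0.085) and RIT1 (-0.086) reversed at 4 h with replicate 1 as the 18 h level, where neither passed. ADM and NFKBIA passed under 16 of 21 alternatives, the changes of ADM ranging between -3.33 and -2.41 and those of NFKBIA between -2.32 and -1.87. No paired analysis was possible because, for replicate numbers, the reoxygenation arrays all carry number 1 and share fewer than 2 with the 18 h arrays; VHL genotype was a term of the fit instead. Single arrays per group, unexplained null entries and the unstated scaling limit all values, most of all those of dim genes.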
